A study of Mus musculus with 4 samples.

Results

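The 34 genes described here act when a cell copies its DNA and divides. They were chosen by name, with earlier results of these data known, and each was found among the 31053 genes of the count tables. The 6 licensing genes, Mcm2 to Mcm7, encode the subunits of the MCM helicase. The 8 synthesis genes are Pcna, Rrm1, Rrm2, Pola1, Lig1, Pclaf, Dtl and Ccne2. Uhrf1 and Hells act on the chromatin of newly made DNA. Brca1, Atr, Apex1, Neil3 and Rad54b act in DNA repair or its checkpoint. The other 13 act in mitosis and are Mki67, Top2a, Birc5, Ccnb2, Ccna2, Bub1, Kif2c, Kif15, Kntc1, Cenph, Cenpn, Smc2 and Smc4. In the kept cells the 34 genes had 105772 of 170545185 unique molecular identifiers (UMIs), where 1 UMI stands for 1 captured mRNA 3′ end.

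The cells came from aortic arches with their branches and the tissue around them, sorted as DAPI-negative, from male mice that were 3 months old at the start. Each group was 1 library of pooled mice, so that no comparison between groups had a replicate check and no p-value was made from cells. The Lox_CTR library (4 mice, Nrf2Cdh5Lox) and the KO_CTR library (4 mice, Nrf2Cdh5tKO) came from animals given saline and a standard diet. The Lox_HFD library (3 mice, Nrf2Cdh5Lox) and the KO_HFD library (3 mice, Nrf2Cdh5tKO) came from animals given an AAV8 vector and a high-fat diet for 21 weeks. The label Nrf2Cdh5Lox stands for the controls that the study's methods call Nrf2 flox/flox. In Nrf2Cdh5tKO mice a constitutive Cre under the Cdh5 promoter, active in endothelial cells and in part of the hematopoietic cells, removes exon 5 of the floxed Nrf2 gene (Nfe2l2), which the Nrf2Cdh5Lox mice keep. Values of the 4 libraries are given throughout in the order Lox_CTR, KO_CTR, Lox_HFD and KO_HFD.

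With the study's limits of 200 to 6000 genes and at most 15% mitochondrial UMIs, 14148 of 15599 barcodes were kept. The libraries held 7890, 2972, 1020 and 2266 kept cells, with medians of 9200.5 to 14152.5 UMIs per cell, and 22 kept barcodes occurred in more than 1 library. Scrublet marked 306 kept cells as doublets, and these were not removed. Nfe2l2 had 186, 379, 169 and 360.4 counts per 1000000 UMIs (CPM) in the endothelial gate, higher under the KO label on each diet. In dendritic cell-like cells it had 332, 209, 435 and 383 CPM, lower under the KO label on each diet. The intervals of Lox_HFD and KO_HFD there overlapped, and KO_CTR and KO_HFD held 17 and 23 of these cells. Nfe2l2 was also higher under both KO labels in T cell-like (57.1, 146, 74.3 and 137) and monocyte-like cells (508, 667, 581 and 914). Smooth muscle-like cells had 101, 99.9, 119.7 and 165. Counts of 3′ ends do not separate transcripts with and without exon 5, so that this level does not check the excision, and each library is named here only as labelled.

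In G1 the MCM helicase is loaded on replication origins, and in S phase it unwinds the DNA, while PCNA holds the polymerases on the template and ribonucleotide reductase (Rrm1, Rrm2) supplies the nucleotides. In mitosis, condensin (Smc2, Smc4) and topoisomerase II alpha (Top2a) shape the chromosomes, and kinetochore proteins such as Bub1, Kntc1, Cenph and Cenpn join them to the spindle. Young T cells of the thymus pass through bursts of division, and macrophages of the arterial wall are known to renew in place.

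Cells were put into classes by a gate on marker genes, none of which is among the 34. Thymocyte-like cells passed the gate for the T lineage and for thymocyte markers and had a UMI of Rag1, Rag2, Dntt or Ptcra, which act in the making of the T cell receptor. In this class the 8 thymocyte markers were all above 0 and summed to 3737 CPM, with Dntt at 823 and Rag1 at 505. T cell-like cells, which by the gate had no UMI of those 4 genes, had 357. The 4 markers of thymic epithelium summed to 30.2 CPM in thymocyte-like cells, with 2 of them at 0. A further 82 cells of the T lineage met neither rule and were kept apart as unresolved.

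The transcripts of the 34 genes lay mostly in few cells. Over the 4 libraries together, and with the gate used here, thymocyte-like cells held more of them than any other class. The 491 thymocyte-like cells were 3.47% of the kept cells and held 36.1% of the UMIs of the 34 genes (exact 95% binomial interval 35.9% to 36.4%, which like all intervals here covers counting error only). Of each library's UMIs of the 34 genes they held 29.2, 49.9, 41.0 and 10.8%, against 28.9, 18.0, 14.4 and 36.6% in fibroblast-like cells. In Lox_CTR the intervals of these shares overlapped. In KO_HFD fibroblast-like cells held more than thymocyte-like cells, and so did macrophage-like cells with 15.2%. The summed level of thymocyte-like cells was 7601, 9631, 7987 and 8124 CPM. The level was high in all 4 libraries, although only 18 of these cells came from KO_HFD. The 5 highest cells of the class gave 13.6, 13.5, 28.6 and 85.0% of its UMIs of the 34 genes in the libraries. The thymocyte-like KO_HFD values given here and below thus rest on few cells. The 8026 fibroblast-like cells were 56.7% of the cells and held 23.97% of the UMIs, at 238, 247, 288 and 277 CPM. With a stricter gate the order turned, with 19.2% of the UMIs in thymocyte-like and 23.5% in fibroblast-like cells.

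The other classes lay between these or close to the fibroblast-like level. T cell-like cells (398 cells) had a summed level of 955, 1982, 1635 and 2289 CPM. Dendritic cell-like cells (137 cells) had 794, 1347, 1389 and 1342, and macrophage-like cells (1349 cells) 598, 835, 439 and 728. The libraries held 77, 17, 20 and 23 dendritic cell-like cells. The 5 highest of them gave 61.6, 87.2, 91.1 and 90.4% of the UMIs of the 34 genes in that class. The dendritic cell-like levels thus rest on few cells. None of the other 6 classes overlapped with the thymocyte-like range, while the ranges of T cell-like and dendritic cell-like cells overlapped with each other. Monocyte-like cells (151 cells) had 289, 519, 1710.4 and 293, and in Lox_HFD 5 of 33 cells gave 91.1% of these UMIs. Smooth muscle-like cells (2403 cells) had 204, 209, 259 and 269, which overlapped with the fibroblast-like range. The unresolved T lineage cells had 6731, 9668, 8180.2 and 7214 and held 11.9% of the UMIs of the 34 genes.

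**Figure D1:**
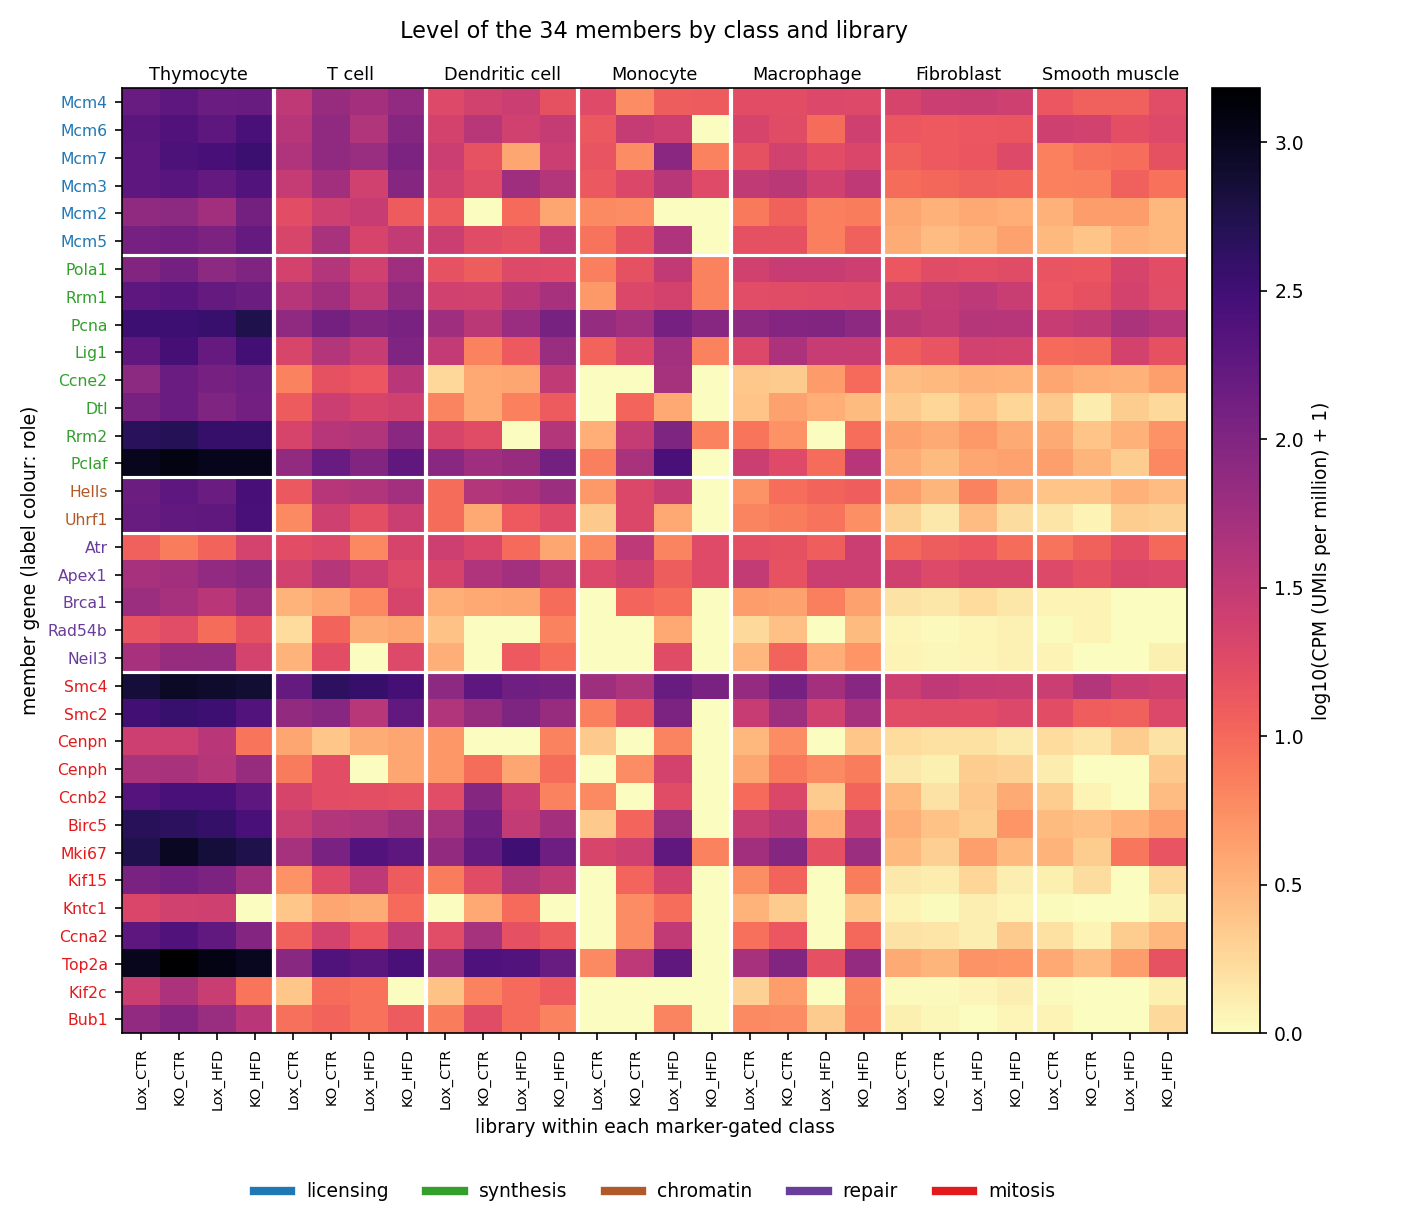
Level of each of the 34 genes (rows, grouped by role) in each class and library (columns), as a colour scale of CPM on a log scale. The thymocyte-like columns hold the highest values for nearly all genes, while Atr differs little between the classes and Apex1 less than most. The 34 genes are called members in all plots.

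Summed over the libraries, 33 of the 34 genes were at least 2-fold higher in thymocyte-like than in fibroblast-like cells, where 27.1% of all genes with at least 20 UMIs were that much higher and 29.5% that much lower. The exception was Atr, a kinase of the replication checkpoint, with a log2 ratio of −0.12 (−0.62 to 0.33). The median log2 ratio was 6.27 for the 34 genes and 0.11 for all genes. The minimum of 20 UMIs was set on the sum of both classes. A gene with few UMIs in fibroblast-like cells thus passed it only through thymocyte-like cells, where it was high. For such genes, of the 34 and of all genes alike, the filter in part fixed the direction. By role, the medians were 4.36 for licensing, 5.01 for synthesis, 6.72 for chromatin, 6.68 for repair and 7.59 for mitosis genes. The 3 highest were Bub1, a kinase of the spindle checkpoint, with 8.80, the PCNA-binding factor Pclaf with 8.80 and Top2a with 8.78. Apex1, an endonuclease of base excision repair, had 1.40, and Mcm4, Pola1 and Rrm1 had 2.86, 2.87 and 2.90. Gate markers of thymocytes also had low counts outside that class. Rag1 had 505 CPM in thymocyte-like and 1.05 in fibroblast-like cells, and Dntt 823 and 1.61. How far fibroblast-like levels this low came from RNA of other cells was not tested.

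Among the licensing genes, Mcm4, Mcm6 and Mcm7 had most UMIs. Mcm4 had 156, 184, 147 and 150.1 CPM in thymocyte-like and 20.9, 25.3, 27.1 and 24.3 in fibroblast-like cells. Mcm6 had 198, 229, 185 and 272 against 12.8, 11.9, 12.8 and 13.2, and Mcm7 192, 255, 281 and 350.1 against 10.5, 11.8, 13.0 and 17.6. For all 3 each thymocyte-like value lay above each fibroblast-like value. Over the libraries together, only Mcm6 of the 6 genes was higher in smooth muscle-like cells, at 22.7 CPM, than in fibroblast-like cells, at 12.6. Its log2 ratio of fibroblast-like to smooth muscle-like cells was −0.84 (−0.97 to −0.71). By library, the lowest such ratio among the 6 genes was −0.89, −0.94, −0.35 and −0.42. In Lox_HFD no interval of the 6 genes lay below 0, and their median ratio was −0.045. Mcm2, Mcm3 and Mcm5 had 75.3, 193 and 121 CPM in thymocyte-like and 2.68, 9.04 and 2.44 in fibroblast-like cells over the libraries.

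Of the synthesis genes, Pcna had 331, 331, 361 and 564 CPM in thymocyte-like and 34.4, 29.6, 38.5 and 37.6 in fibroblast-like cells. Pclaf (GRCm38.p6, chr9:65890237-65903266, plus strand) had 1006, 1206, 1032 and 1072 against 2.52, 1.83, 2.89 and 3.24. Rrm1, the large subunit of ribonucleotide reductase, had 185, 208, 165 and 143 against 22.7, 28.7, 33.2 and 27.0. The small subunit Rrm2, known to be made mainly in S phase, stood further apart between the classes than Rrm1, with log2 ratios of 7.24 and 2.90. Rrm2 had 466 CPM in thymocyte-like and 3.07 in fibroblast-like cells over the libraries. The ligase Lig1, the ubiquitin ligase factor Dtl, cyclin E2 (Ccne2) and the polymerase subunit Pola1 had 229, 128, 117 and 106 in thymocyte-like cells. In fibroblast-like cells these 4 had 13.8, 1.12, 1.87 and 14.4.

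The chromatin remodeller Hells had 143, 185, 145 and 286 CPM in thymocyte-like and 3.32, 2.13, 5.78 and 2.59 in fibroblast-like cells. Uhrf1, which brings DNA methylation to new strands, had 149, 177, 178 and 279 against 0.977, 0.374, 1.73 and 0.648. Both were far lower in fibroblast-like cells, whereas the repair genes Apex1 and Atr stood less far apart between these classes. Apex1 had 48.9, 55.5, 73.4 and 85.7 against 23.5, 18.1, 20.6 and 20.6. Atr had 10.5, 6.29, 9.88 and 21.4, the last from 3 UMIs, against 8.98, 11.1, 12.8 and 8.498. The DNA glycosylase Neil3 had 48.9, 64.4, 66.3 and 21.4 in thymocyte-like cells but only 17 UMIs in all fibroblast-like cells, which is 0.184, 0.112, 0.144 and 0.216 CPM. Brca1 and Rad54b, which act in recombination repair, had 51.2 and 13.9 in thymocyte-like and 0.501 and 0.128 in fibroblast-like cells over the libraries.

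Of the mitosis genes, Top2a (chr11:98992943-99024189, minus strand) had 1004, 1518, 1157 and 986 CPM in thymocyte-like and 2.69, 2.09, 4.19 and 4.10 in fibroblast-like cells. Mki67 (chr7:135689784-135716361, minus strand), whose protein coats mitotic chromosomes, had 562, 938, 700.1 and 557 against 1.94, 1.05, 3.32 and 1.94. Smc4 had 684, 886, 820.1 and 750.3 against 24.8, 32.6, 27.7 and 27.4. The condensin genes Smc4 and Smc2 were thus also measured in fibroblast-like cells, and their log2 ratios of 4.86 and 4.33 were the lowest of the 13 mitosis genes. Kntc1 had 19.2, 23.6, 23.99 and 0 in thymocyte-like cells, where the 0 UMIs of KO_HFD allow a level of up to 21.4. Cenpn had 24.5, 24.6, 35.3 and 7.15, the last from 1 UMI. Fibroblast-like cells had 15 UMIs of Kntc1 and 61 of Cenpn in all, or 0.184, 0.0374, 0.289 and 0.144 and 0.682, 0.561, 0.578 and 0.360 CPM. The other mitosis genes, Birc5, Ccnb2, Ccna2, Bub1, Kif2c, Kif15 and Cenph, had 33.8 (Kif2c) to 448 (Birc5) in thymocyte-like and at most 2.32 (Birc5) in fibroblast-like cells over the libraries.

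How far a gene was held by few cells was read from a ranking that the gene itself did not enter. Cells were ranked by the UMIs per 10000 of the other 33 genes, and the top 5% (707 cells) were taken, which had close to 5.06% of all UMIs. Ranked by all 34 genes, 293 of these cells were thymocyte-like. The top cells held 97.4% of the UMIs of Bub1, 96.7% of Pclaf, 96.2% of Kif2c, 95.9% of Neil3 and 95.8% of Top2a, and over 90% for 11 of the 34 genes. At the other end they held 7.08% of the UMIs of Atr (5.92% to 8.39%) and 13.9% of those of Apex1 (12.9% to 15.1%). The share was under 50% for 8 genes, which were Atr, Apex1, Mcm4, Pola1, Rrm1, Pcna, Mcm6 and Smc4. The median share was 52.4% for licensing, 62.8% for synthesis, 83.8% for chromatin, 86.7% for repair and 93.3% for mitosis genes. With the cells ranked by all 34 genes together, 27 of them had over 50% of their UMIs in the top cells, as had 2.18% of all genes with at least 20 UMIs, but that ranking used the counts of the 34 themselves.

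**Figure D2:**
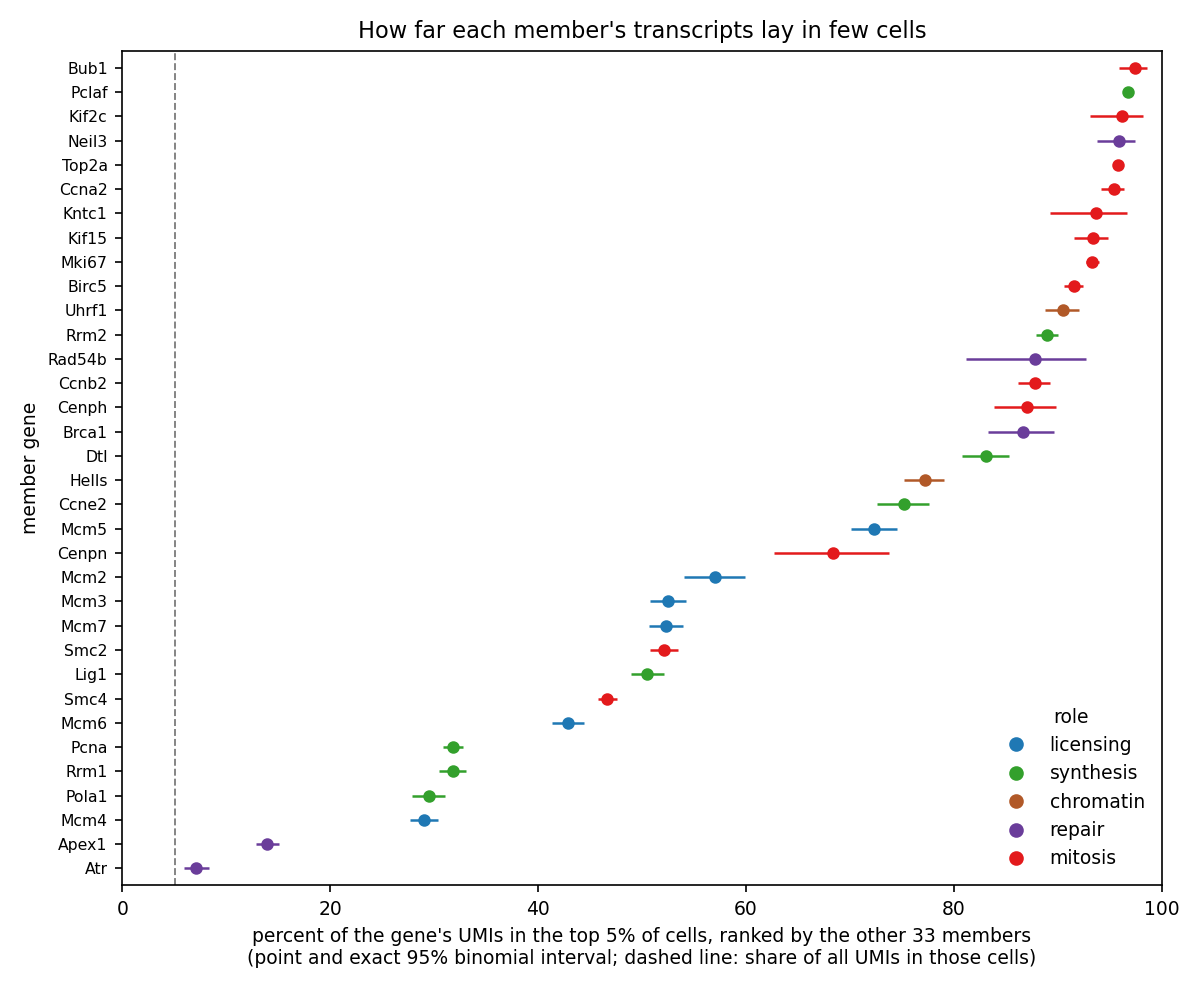
Percent of the UMIs of each gene (x axis) in the top 5% of cells, ranked by the other 33 genes, with exact 95% binomial intervals and colour by role. All mitosis genes except Smc2, Smc4 and Cenpn lie at 87.1% or above, the licensing genes lie between 29.0% and 72.3%, and Atr lies close to the share of all UMIs in those cells.

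Outside the top cells some of the genes kept a level of their own. Pcna had 37.1 CPM in the remaining cells, Smc4 36.9, Apex1 21.1, Rrm1 20.6 and Mcm4 19.5. Kif2c, Kntc1 and Bub1 had 0.0618, 0.0741 and 0.0988 there. Reads of 3′ ends do not depend on gene length in the way of full-length reads, but capture can differ between genes, so that levels of different genes are set side by side only roughly.

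The letters before the start sites were read from RefSeq promoter windows of GRCm38.p6, from 250 bases before to 50 bases after a start. Windows were matched for 29 of the 34 genes (33 windows), and Rad54b, Ccna2, Mcm4, Ccne2 and Smc4 were not matched. All letters were searched on both strands. E2F-type letters (TTTCGCGC, TTTGGCGC, TTTCCCGC or TTTGCCGC), a form of the site of E2F factors, stood in windows of 11 of the 29 genes and in 2.26% of all 32851 windows. These were Mcm3, Mcm5, Mcm6, Mcm7, Dtl, Lig1, Pclaf, Pola1, Hells, Uhrf1 and Kif15, and Kif15 was the only mitosis gene among them. The letters TTTGAA, the core of the CHR element of late cell cycle genes, stood in windows of 9 genes and in 17.9% of all windows. They were found for 8 of the 11 mitosis genes (Ccnb2, Cenpn, Kif15, Kif2c, Kntc1, Mki67, Smc2 and Top2a), for Mcm2, and for none of the 7 synthesis genes with a window. CCAAT letters stood in windows of 22 genes and in 37.4% of all windows.

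Stretches of 160 bases, each ending just before an annotated RefSeq start, are shown for 2 replication genes with E2F-type letters (Mcm6, Pola1), for 3 mitosis genes with CHR or repeated CCAAT letters (Top2a, Mki67, Ccnb2), and for Apex1, which was found in all classes. Capitals mark the E2F-type, CHR and CCAAT letters in either orientation, and the strand of the gene is given 5′ to 3′.
Mcm6, chr1:128359706-128359865, minus strand: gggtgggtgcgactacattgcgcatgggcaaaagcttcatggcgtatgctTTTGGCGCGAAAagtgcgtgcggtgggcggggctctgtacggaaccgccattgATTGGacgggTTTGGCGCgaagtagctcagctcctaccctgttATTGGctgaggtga
Pola1, chrX:93632156-93632315, minus strand: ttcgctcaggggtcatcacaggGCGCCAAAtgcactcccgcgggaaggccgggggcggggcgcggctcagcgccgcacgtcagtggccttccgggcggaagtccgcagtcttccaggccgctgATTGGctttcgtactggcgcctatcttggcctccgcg
Top2a, chr11:99024190-99024349, minus strand: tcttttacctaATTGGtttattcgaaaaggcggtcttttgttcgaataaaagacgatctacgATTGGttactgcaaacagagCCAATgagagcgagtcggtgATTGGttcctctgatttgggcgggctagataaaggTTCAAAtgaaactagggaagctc
Mki67, chr7:135716380-135716539, minus strand: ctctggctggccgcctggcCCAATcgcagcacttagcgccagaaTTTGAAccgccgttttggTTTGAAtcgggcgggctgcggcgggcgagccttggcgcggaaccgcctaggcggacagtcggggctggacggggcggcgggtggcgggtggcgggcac
Ccnb2, chr9:70421555-70421714, minus strand: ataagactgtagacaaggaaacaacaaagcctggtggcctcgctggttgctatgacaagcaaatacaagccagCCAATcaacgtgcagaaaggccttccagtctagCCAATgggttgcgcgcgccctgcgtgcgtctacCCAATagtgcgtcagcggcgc
Apex1, chr14:50924789-50924948, plus strand: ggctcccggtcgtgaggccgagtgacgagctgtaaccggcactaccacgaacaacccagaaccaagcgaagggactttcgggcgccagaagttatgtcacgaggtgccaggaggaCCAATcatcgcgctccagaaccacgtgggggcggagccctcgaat
In Mcm6 the E2F-type letters began 110, 106 and 47 bases before the end of the stretch, and the first and the second of these matches overlapped. The CHR letters began 23 bases before it in Top2a and 116 and 98 in Mki67, while those of Ccnb2 lay outside the stretch shown. CCAAT letters began 87, 54 and 21 bases before the end in Ccnb2 and 149, 98, 78 and 58 in Top2a, against 45 in Apex1. A match describes letters only.

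Most cells had few of the 34 genes detected, and a smaller set had most of them. Of the 14148 cells, 12192 had a UMI of 0 to 4 of the genes, 1423 of 5 to 7, 147 of 8 to 10, 49 of 11 to 14, 57 of 15 to 19 and 280 of 20 to 34. Cells with 8 or more are described here as a range of this number and not as a cell type, and whether they divided was not measured. At the limit, 5 thymocyte-like cells had 7 of the genes and 3 had 8, and 15 macrophage-like cells had 7 and 5 had 8.

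Of the 491 thymocyte-like cells, 216 had 8 or more of the genes (44.0%, interval 39.5% to 48.5%). By library the shares were 42.9, 44.9, 45.5 and 38.9%, and all 4 intervals overlapped. These cells had a median of 25.5 of the genes and gave 97.3% of the UMIs of the 34 genes in the class. Their summed level was 10903 CPM, against 978 in the other thymocyte-like cells, a direction that the split by the same genes fixes. They were also deeper, with a median of 12817 UMIs against 3588, and none of the thymocyte-like cells was marked as a doublet. When each cell was thinned to 3000 UMIs, and 89 shallower cells were left out, 194 of 402 cells had 8 or more (48.3%, 43.3% to 53.3%). This share and the 44.0% thus rest on different sets of cells, and the number of such cells was lower after thinning. Thymocyte markers had a median of 30.2 UMIs per 10000 in the cells with 8 or more and 61.7 in the others. Of the unresolved T lineage cells 49 of 82 had 8 or more (59.8%).

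**Figure D3:**
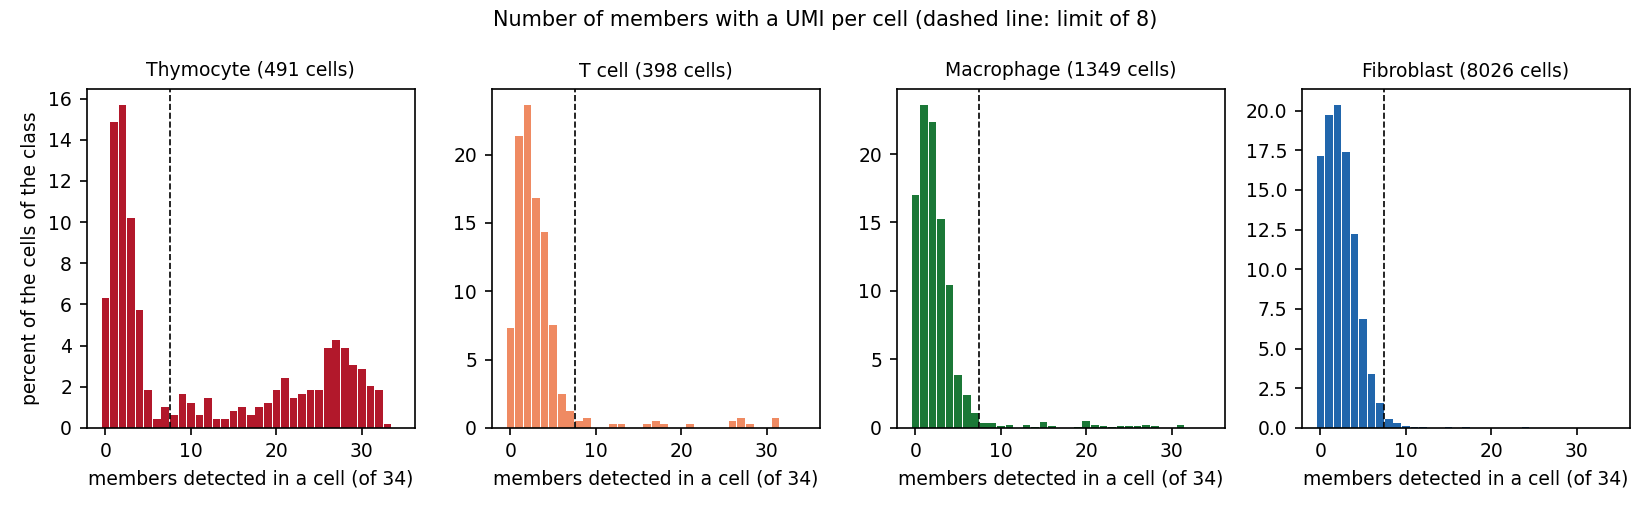
Number of the 34 genes with a UMI per cell (x axis) against the percent of cells (y axis) in 4 classes, with a line at the limit of 8 and a scale of its own for each class. Thymocyte-like cells have a second group of cells above 20 genes, which is thin in macrophage-like cells and nearly missing in fibroblast-like cells.

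Macrophage-like cells with 8 or more of the genes were 55 of 1349 (4.08%, interval 3.09% to 5.27%), with a median of 19 genes. They numbered 30, 16, 1 and 8 of 641, 328, 101 and 279 cells in the libraries, or 4.68, 4.88, 0.990 and 2.87%. The share of Lox_HFD was the lowest, and its interval (0.0251% to 5.39%) overlapped with the other 3. None of the 55 was marked as a doublet, against 1.70% of the other macrophage-like cells. The 55 cells gave 56.3% of the UMIs of the 34 genes in the class. Macrophage markers had a median of 198 UMIs per 10000 in them and 219.7 in the other macrophage-like cells, and thymocyte and T cell markers had a median of 0 in both. After thinning, 28 cells (2.41%) had 8 or more, which were 14, 7, 1 and 6 in the libraries.

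In the other classes, 21 T cell-like cells (5.28%), 19 dendritic cell-like cells (13.9%) and 5 monocyte-like cells (3.31%) had 8 or more of the genes. Of these T cell-like cells 2 were marked as doublets, against 1 of the other 377. Among fibroblast-like cells 103 (1.28%) and among smooth muscle-like cells 20 (0.832%) had 8 or more. Of these, 8.74% and 20% were marked as doublets, against 1.17% and 5.62% of the other cells of the 2 classes. After thinning, 12 T cell-like (3.37%), 6 dendritic cell-like (4.65%), 3 monocyte-like (2.04%), 5 fibroblast-like (0.0691%) and 2 smooth muscle-like cells (0.0920%) had 8 or more. The thinned share was lower than the unthinned one in each of these 5 classes. By the gate T cell-like cells had no UMI of Rag1, Rag2, Dntt or Ptcra, a rule that deeper cells meet less easily. Their median depth was 6702.5 UMIs, against 15953.5 in the unresolved T lineage cells. Whether this rule lowered the T cell-like share was not tested. With a limit of 15 genes, the counts were 185 thymocyte-like, 36 macrophage-like, 14 T cell-like, 11 dendritic cell-like, 16 fibroblast-like and 3 smooth muscle-like cells. As values of a single gene, Mki67 had a UMI in 1.25% of fibroblast-like cells (median depth 12832 UMIs) and in 8.90% of macrophage-like cells (median 8755), and after thinning in 0.332% and 5.42%.

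**Figure D4:**
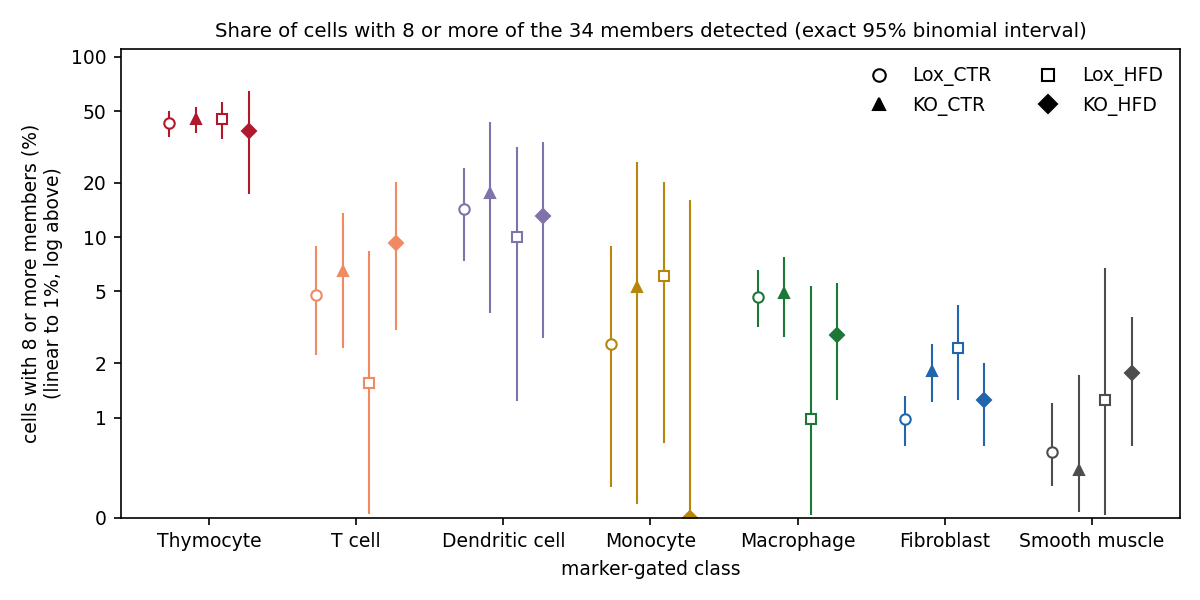
Percent of cells with 8 or more of the 34 genes detected (y axis) by class and library, with exact 95% binomial intervals, on an axis that is linear up to 1% and logarithmic above. The thymocyte-like values lie between 38.9% and 45.5%, and the macrophage-like values between 0.990% and 4.88%.

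Replication and mitosis genes were not in the same proportion in all classes. In thymocyte-like cells the 14 replication genes (licensing and synthesis) had 0.848 UMIs for each UMI of the 13 mitosis genes, with 0.902, 0.804, 0.811 and 1.26 in the libraries. In fibroblast-like cells the ratio was 2.86 (2.80, 2.81, 3.32 and 2.95) and in smooth muscle-like cells 2.35 (2.45, 2.24, 3.22 and 1.96). The ranges of both lay above that of thymocyte-like cells. In T cell-like cells it was 0.970, 0.829, 0.603 and 0.992, and in macrophage-like cells 1.05, 0.702, 2.30 and 0.942. In Lox_HFD 1 T cell-like cell gave 113 of 226 replication and 265 of 375 mitosis UMIs. Without the cells with 8 or more of the genes, macrophage-like cells had 1078, 490, 162 and 334 replication and 481, 256, 71 and 193 mitosis UMIs. T cell-like cells then had 301, 164, 113 and 68 against 247, 261, 110 and 92. The cells left out were picked by the same genes. The macrophage-like ratio was highest in Lox_HFD, the library with 1 macrophage-like cell with 8 or more of the genes. Under the stricter gate the thymocyte-like ratio was 0.585.

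Among the 216 thymocyte-like cells with 8 or more of the genes the balance varied widely. Replication genes made 12.7% of the replication and mitosis UMIs at the 10th percentile of these cells, 44.9% at the median and 74.3% at the 90th. Dtl or Ccne2, known from S phase, were found without Ccnb2 or Birc5, known from G2 and mitosis, in 14 cells, the reverse in 35, both in 165 and neither in 2. In the 55 macrophage-like cells these counts were 9, 18, 11 and 17.

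Between the libraries, the comparisons by genotype label and by diet asked whether the genes differed within a class, and they share libraries with each other. Thymocyte-like cells differed little. KO_CTR against Lox_CTR gave a log2 ratio of the summed level of 0.34 (0.31 to 0.37), with 30 of 34 genes above 0 and a median of 0.26 against 0.055 over all genes. None of the 34 genes was past 2-fold, as 4.67% of all genes with at least 20 UMIs were. Lox_HFD against Lox_CTR gave 0.072 (0.026 to 0.12), again with none of the 34 genes and 7.58% of all genes past 2-fold. Without the thymocyte-like cells with 8 or more of the genes the ratios were 0.21 (0.0029 to 0.41) and 0.44 (0.19 to 0.68). The intervals treat each UMI as drawn alone and say nothing of the spread between mice. KO_HFD, with 18 thymocyte-like cells, was not compared gene by gene. Nfe2l2 was 57.7, 149, 67.8 and 100.04 CPM in the thymocyte-like cells.

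Macrophage-like cells differed more in the summed level. KO_HFD against Lox_HFD gave a log2 ratio of 0.73 (0.56 to 0.90), and Lox_HFD against Lox_CTR −0.45 (−0.61 to −0.29). Without the cells with 8 or more of the genes these ratios were −0.10 (−0.31 to 0.11) and 0.21 (0.021 to 0.39). Both values turned their sign, but the first interval includes 0. The cells left out were picked by the same genes and were 30 in Lox_CTR, 1 in Lox_HFD and 8 in KO_HFD. Their removal thus in part fixes the direction of both changes. With each cell weighted equally the same ratios were −0.050 and −0.018. KO_CTR against Lox_CTR gave 0.48 (0.40 to 0.56), and 0.27 (0.15 to 0.39) without those cells. KO_HFD against KO_CTR gave −0.20 (−0.29 to −0.10), and −0.17 (−0.32 to −0.017) without them. In KO_HFD against Lox_HFD the mitosis genes had 1.56 (1.25 to 1.89) and the replication genes 0.27 (0.047 to 0.50). Without the cells with 8 or more of the genes these were 0.12 (−0.28 to 0.53) and −0.28 (−0.55 to 0.0010). The 8 such cells of KO_HFD gave 546 of its 739 mitosis UMIs, and the 1 of Lox_HFD gave 22 of 93. In the libraries such cells gave 54.8, 62.0, 23.5 and 60.2% of the UMIs behind the summed level. The mitosis ratio over all cells thus rests largely on few cells of KO_HFD.

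The minimum of 20 UMIs was set on the sum of both libraries, so that a gene with few UMIs in the smaller library passed it only through the other, where it was high. This holds for the 34 genes and for all genes alike, and the counts below are descriptions that support no direction. In macrophage-like cells, 10 of 21 genes with at least 20 UMIs were at least 2-fold higher in KO_HFD than in Lox_HFD and none was lower, where 9.01% of all genes passed 2-fold in either direction. Between Lox_HFD and Lox_CTR, 9 of 27 were lower and 1 higher (15.7% of all genes). Between KO_CTR and Lox_CTR, 7 of 29 were higher and 1 lower (11.8%), and between KO_HFD and KO_CTR 2 of 29 were higher and 1 lower (6.80%). The first and the second of these share the Lox_HFD library, where 101 macrophage-like cells had 358 UMIs of the 34 genes, against 1603 in KO_HFD and 4115 in Lox_CTR.

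Mki67 had 54.1, 88.7, 14.7 and 59.5 CPM in macrophage-like cells, Top2a 48.5, 94.2, 14.7 and 68.2 and Pclaf 25.4, 17.3, 8.58 and 37.7. Lox_HFD was the lowest library for all 3. Birc5, a part of the chromosomal passenger complex, had 27.0, 35.1, 2.45 and 25.0, cyclin B2 (Ccnb2) 8.87, 18.9, 1.23 and 10.0 and the motor protein gene Kif15 4.65, 9.86, 0 and 6.36. Cyclin A2 (Ccna2) had 7.99, 12.6, 0 and 9.09 and Bub1 4.94, 4.73, 1.23 and 5.91. The Lox_HFD values of these 5 genes rest on 2, 1, 0, 0 and 1 UMIs, where 0 UMIs allow up to 3.68 CPM. The log2 ratio of KO_HFD to Lox_HFD for Birc5 was 3.35 (1.43 to 6.43). Mcm6 had 20.9, 16.6, 8.58 and 24.1 and Mcm5 14.8, 14.6, 6.13 and 10.5, also lowest in Lox_HFD. Hells (4.21, 8.28, 9.81 and 10.9) was the only gene past 2-fold higher in Lox_HFD than in Lox_CTR.

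The condensin gene Smc2 (28.2, 58.0, 23.3 and 49.1) was higher in both libraries labelled KO than in both others, as were its partner Smc4 (68.9, 118, 51.5 and 88.1) and Cenph (2.91, 6.70, 4.90 and 6.36). Lig1, which joins Okazaki fragments, had 18.6, 44.9, 28.2 and 28.2, with KO_CTR above the other 3. Neil3 (2.03, 9.86, 2.45 and 4.09) and Cenpn (2.03, 4.73, 0 and 1.36) were also highest in KO_CTR. Ccne2 had 1.31, 1.18, 3.68 and 8.63, from 9, 3, 3 and 19 UMIs. The repair genes Apex1 (29.9, 13.8, 25.7 and 25.9) and Atr (15.4, 14.6, 11.03 and 25.9) were lowest in KO_CTR and highest in KO_HFD, respectively.

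In T cell-like cells the summed level was higher in KO_CTR than in Lox_CTR, with a log2 ratio of 1.05 (0.94 to 1.16), and in KO_HFD than in Lox_HFD, with 0.49 (0.33 to 0.64). Without the cells with 8 or more of the genes the ratios were 0.66 (0.49 to 0.84) and −0.14 (−0.43 to 0.15). Lox_HFD against Lox_CTR gave 0.78 (0.64 to 0.91), and 0.46 (0.24 to 0.67) without those cells. KO_HFD against KO_CTR gave 0.21 (0.080 to 0.34), and −0.34 (−0.60 to −0.085) without them. Thus 2 of the 4 ratios turned their sign without 21 cells, which were picked by the same genes. For KO_HFD against Lox_HFD the interval without them includes 0. With the doublets marked by Scrublet removed, KO_CTR against Lox_CTR was 1.53 and Lox_HFD against Lox_CTR 1.25. The cell with most UMIs of the 34 genes had 235, 434, 393 and 211 of 1338, 1396, 638 and 783 UMIs in the libraries. T cell-like cells with 8 or more of the genes numbered 9, 6, 1 and 5 in the libraries. They gave 54.26, 66.55, 61.60 and 78.03% of the UMIs behind the summed level, which thus rests largely on few cells.

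Past 2-fold were 11 of 25 genes in T cell-like KO_CTR against Lox_CTR, all higher (13.3% of all genes in either direction), and 6 of 16, all higher, in KO_HFD against Lox_HFD (8.43%). In Lox_HFD against Lox_CTR 4 of 23 were higher and 1 lower (15.7%), and in KO_HFD against KO_CTR 3 of 24 were higher and 2 lower (10.5%). Thymocyte-like cells were 2.51, 6.29, 8.63 and 0.794% of the kept cells in the libraries, and whether their RNA had a part in these differences was not tested.

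Smc4 had 166, 432, 382 and 292 CPM in T cell-like cells, Top2a 84.3, 239.9, 195 and 275, Mki67 49.98, 114, 223 and 190.0 and Hells 12.1, 36.9, 41.0 and 52.6. Lox_CTR was the lowest library for these 4 genes, and also for Pclaf (71.4, 155, 97.4 and 178), Uhrf1 (5.00, 24.1, 15.4 and 26.3) and Dtl (11.4, 25.6, 20.5 and 23.4). In Lox_HFD 1 T cell-like cell gave 265 of 375 UMIs of the mitosis genes. How far the level of each single gene rests on the cells with 8 or more of the genes was not tested. Of the licensing genes, Mcm3 had 28.6, 55.4, 23.1 and 90.6, Mcm4 32.1, 65.3, 51.3 and 73.1 and Mcm6 37.1, 75.2, 41.0 and 90.6, highest in KO_HFD, while Mcm5 (19.99, 46.9, 20.5 and 29.2) was highest in KO_CTR. KO_HFD was also the highest library for the synthesis genes Rrm1 (37.8, 55.4, 30.8 and 76.0), Rrm2 (20.7, 36.9, 41.0 and 81.9), Pola1 (22.1, 39.8, 23.1 and 55.5) and Lig1 (19.99, 39.8, 28.2 and 99.4), and for Smc2 (71.4, 86.6, 35.9 and 172). Mcm2 (15.7, 24.1, 28.2 and 11.7), Apex1 (22.8, 38.3, 25.6 and 17.5), Atr (15.7, 18.5, 5.13 and 20.5), Ccne2 (5.71, 14.2, 12.8 and 35.1) and Cenph (6.43, 15.6, 0 and 2.92) were past 2-fold in 1 comparison each, from at most 32 UMIs a library.

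**Figure D5:**
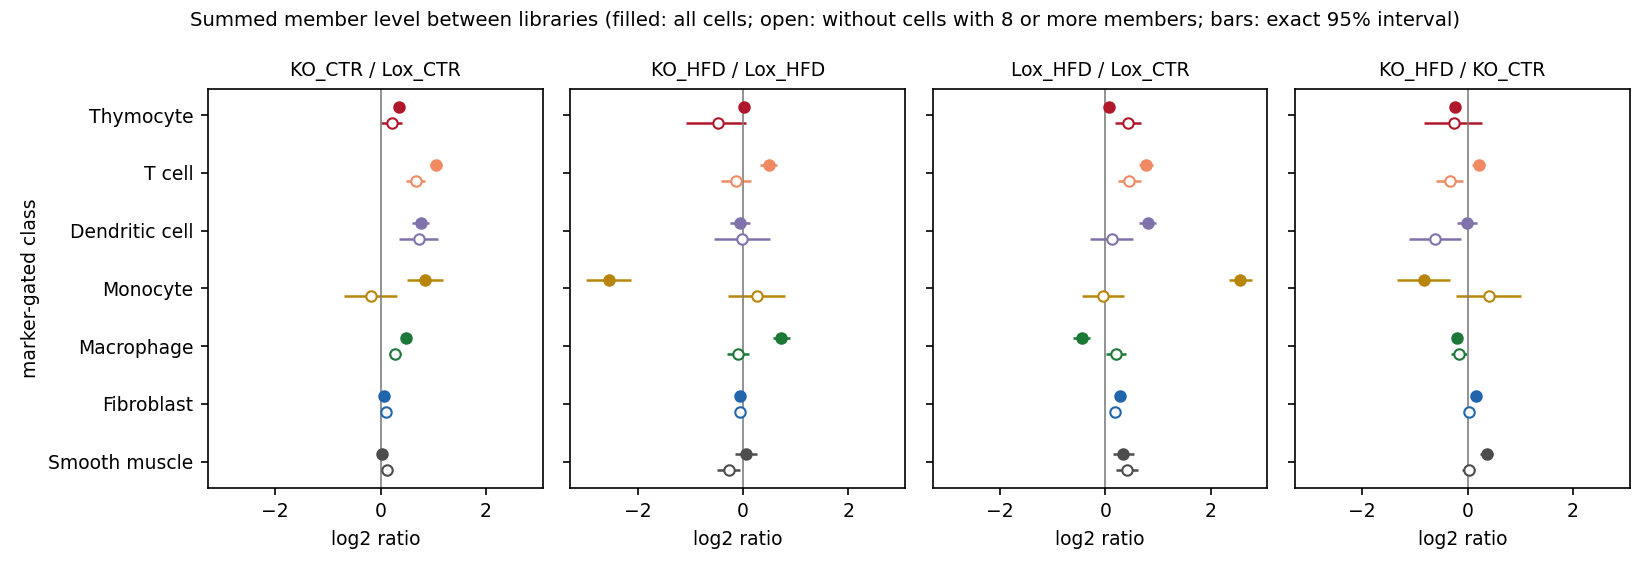
Log2 ratio of the summed level of the 34 genes between libraries (x axis) by class, over all cells and without the cells with 8 or more of the genes, with exact 95% intervals for counting error. The macrophage-like value of KO_HFD against Lox_HFD moves from 0.73 to −0.10 and that of Lox_HFD against Lox_CTR from −0.45 to 0.21. The cells left out were picked by the same genes. Pairs of monocyte-like and dendritic cell-like cells and those with thymocyte-like KO_HFD rest on fewer than 50 cells in at least 1 library.

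Fibroblast-like and smooth muscle-like cells differed little in the summed level. In fibroblast-like cells the log2 ratios were 0.057 (0.014 to 0.10) for KO_CTR against Lox_CTR, −0.052 (−0.13 to 0.027) for KO_HFD against Lox_HFD, 0.27 (0.21 to 0.34) for Lox_HFD against Lox_CTR and 0.17 (0.11 to 0.22) for KO_HFD against KO_CTR. With each cell weighted equally the last was −0.052, and with no upper limit on genes per cell KO_HFD against Lox_HFD was 0.17. In the same order, 0 genes were at least 2-fold higher and 2 lower of 29 (7.38% of all genes in either direction), 2 and 2 of 25 (3.48%), 3 and 1 of 29 (9.36%), and 4 and 0 of 26 (7.23%). In smooth muscle-like cells the ratios were 0.036 (−0.054 to 0.12), 0.055 (−0.15 to 0.27), 0.34 (0.14 to 0.54) and 0.36 (0.24 to 0.48). The counts there were 0 higher and 2 lower of 24 (6.83%), 2 and 0 of 15 (8.23%), 4 and 1 of 23 (16.0%), and 5 and 0 of 19 (6.17%).

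Lig1 had 10.8, 13.7, 22.7 and 21.2 CPM in fibroblast-like and 8.85, 9.04, 22.1 and 14.4 in smooth muscle-like cells. In both classes both HFD libraries lay above both CTR libraries, each being 1 library of pooled mice. The smooth muscle-like value of Lox_HFD rests on 19 UMIs. The other genes past 2-fold had few UMIs. Whether RNA of other cells had a part in their levels was not tested. In fibroblast-like cells Ccnb2 had 1.94, 0.523, 1.30 and 2.66, Birc5 2.40, 1.53, 1.16 and 4.10, Cenph 0.387, 0.224, 1.16 and 1.01, Ccna2 0.534, 0.486, 0.289 and 1.22 and Kif15 0.405, 0.299, 0.866 and 0.288. Uhrf1 and Hells, whose values stand above, were highest in Lox_HFD. In smooth muscle-like cells Mki67 had 2.20, 1.13, 6.97 and 13.3, Top2a 2.75, 1.78, 3.49 and 13.8 and Pclaf 3.39, 2.10, 1.16 and 5.13. KO_HFD was the highest library for these 3, and 1 smooth muscle-like cell there had 173 of the 1050 UMIs of the 34 genes. Without the cells with 8 or more of the genes, KO_HFD against KO_CTR was 0.018 (−0.11 to 0.15). KO_HFD against Lox_HFD then was −0.27 (−0.49 to −0.047), with the sign turned, but the cells left out were picked by the same genes. Atr (7.54, 10.2, 15.1 and 8.97), Rrm2 (2.63, 1.45, 2.32 and 4.36), Ccnb2 (1.14, 0.161, 0 and 1.79), Birc5 (1.86, 1.61, 2.32 and 3.33) and Dtl (1.27, 0.323, 1.16 and 0.769) were past 2-fold in at least 1 comparison as well.

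Cell cycle genes outside the 34, listed from textbook knowledge, were set beside them. All 23 other S phase genes were at least 2-fold higher in thymocyte-like than in fibroblast-like cells, with a median log2 ratio of 4.16, and so were all 30 other G2 and M genes, with a median of 6.98. Cdc6, which loads the MCM helicase, had 115 CPM in thymocyte-like and 5.19 in fibroblast-like cells, and the mitotic kinase Cdk1 169.6 and 1.06. Of 24 genes of the restriction point and of arrest, 15 were at least 2-fold higher and 6 lower, beside the 27.1% and 29.5% of all genes given above. The D-type cyclin Ccnd3 had 482 against 94.2, while Ccnd1 had 2.91 against 53.3 and the inhibitor Cdkn1a (p21) 42.9 against 485. Of 66 histone, chromatin and tubulin genes, 62 were higher and 1 lower, but near-identical histone genes may share reads, so that their single values are uncertain.

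Over 25 sums of a class and library with at least 20 cells, the 10 genes of 13146 whose log2 level was most like that of the 34 genes were Stmn1 (Pearson r 0.977), Nuf2, Ncapd2, Tacc3, Spc25, Ezh2, Esco2, Depdc1a, Nek2 and Hist1h3b (0.967). These points share libraries and classes, and r is a description. Stmn1 had 2443 CPM in thymocyte-like and 22.2 in fibroblast-like cells.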

How the data were processed

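Libraries were made with the 10x 3′ v3.1 chemistry from pooled mice. Per the submitters' processing notes, the authors aligned reads with Cell Ranger 6.1.2 to mm10 and deposited the UMI count of each gene and barcode, 1 matrix per library, with no normalization. Each UMI count was used as deposited.

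The limits of the study's methods were used, which leave out barcodes with under 200 or over 6000 genes or with over 15% mitochondrial UMIs. Each cell was scored for each class by the mean over its markers of the log UMIs per 10000, scaled to the 99.5th percentile of the cells, and was put in the class with a score of at least 0.2 and 0.05 above the next (0.3 and 0.1 in the stricter gate). T lineage cells were split by the thymocyte score and by a UMI of Rag1, Rag2, Dntt or Ptcra. Cells were not clustered, and cells marked by Scrublet were kept.

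UMIs were summed per class and library. Shares have exact Clopper-Pearson intervals at 95%, levels exact Poisson intervals, and ratios exact intervals from the binomial split, all for counting error only. A count of 0 was read as allowing up to 3 counts. A gene was called past 2-fold with at least 20 UMIs over both libraries, in classes with at least 50 cells in both. Before use, the code for the ratios and for the top-cell shares was tested on simulated data with known answers, and no result of that simulation is given.

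The 34 genes, the marker lists and the other gene lists were chosen with earlier results of these data known. Values in every library are given for the 3 genes of each role with most UMIs, for Mki67, Top2a, Pclaf, Neil3, Kntc1 and Cenpn, and for genes past 2-fold with an interval that leaves out 0. Other genes past 2-fold were added after their values were seen. Alternatives were other limits on genes, mitochondrial UMIs, depth, doublets, the gate, the mean over cells, the top share of cells, thinning and the limits on genes, UMIs and fold.

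Doublets were marked with scanpy 1.11.5, sums and intervals were made with scipy 1.17.1, pandas 2.3.3 and numpy 2.4.6 under Python 3.11.15, and plots with matplotlib 3.10.9.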

Additional observations from a re-analysis of the deposited data

Results flagged for a closer look

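Barcodes with over 6000 genes lie outside the report's comparisons. The 34 genes had 1692 CPM in the 144 such barcodes (1260.0, 1876, 4692 and 1489 in the libraries), against 620.2 in the kept cells. Both CTR libraries showed this as well. Of these barcodes 71 (49.3%) had a UMI of 8 or more of the genes, at a median of 41944 UMIs. By the gate, 73 were fibroblast-like and 34 smooth muscle-like. Whether doublets or depth had a part in this was not tested.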

How the results depend on the processing

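Each library is 1 group, so that every comparison lacks a replicate check and no result carries a test. No paired analysis was possible because each group is 1 library of pooled mice. Changes under an alternative were set against counting error only, and the cause of each was not tested. A maximum of 10% mitochondrial UMIs moved none of the results beyond it. Small classes limit the depth, with 18 thymocyte-like cells in KO_HFD.

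The log2 ratios of the summed level that moved were as follows. Without the cells with 8 or more of the genes they were 0.21 for KO_CTR against Lox_CTR and 0.44 for Lox_HFD against Lox_CTR in thymocyte-like cells, 0.66 for KO_CTR against Lox_CTR, −0.14 for KO_HFD against Lox_HFD, 0.46 for Lox_HFD against Lox_CTR and −0.34 for KO_HFD against KO_CTR in T cell-like cells, 0.27 for KO_CTR against Lox_CTR, −0.10 for KO_HFD against Lox_HFD and 0.21 for Lox_HFD against Lox_CTR in macrophage-like cells, 0.11 for KO_CTR against Lox_CTR, 0.18 for Lox_HFD against Lox_CTR and 0.023 for KO_HFD against KO_CTR in fibroblast-like cells and 0.13 for KO_CTR against Lox_CTR, −0.27 for KO_HFD against Lox_HFD and 0.018 for KO_HFD against KO_CTR in smooth muscle-like cells. With a mean over cells they were 0.26 for KO_CTR against Lox_CTR and 0.14 for Lox_HFD against Lox_CTR in thymocyte-like cells, 0.75 for KO_CTR against Lox_CTR and 0.32 for Lox_HFD against Lox_CTR in T cell-like cells, 0.30 for KO_CTR against Lox_CTR, −0.050 for KO_HFD against Lox_HFD, −0.018 for Lox_HFD against Lox_CTR and −0.37 for KO_HFD against KO_CTR in macrophage-like cells, 0.20 for KO_CTR against Lox_CTR, −0.20 for KO_HFD against Lox_HFD, 0.35 for Lox_HFD against Lox_CTR and −0.052 for KO_HFD against KO_CTR in fibroblast-like cells and 0.21 for KO_CTR against Lox_CTR and 0.13 for KO_HFD against KO_CTR in smooth muscle-like cells. With no upper limit on genes per cell they were 0.15 for KO_CTR against Lox_CTR, 0.17 for KO_HFD against Lox_HFD and 0.27 for KO_HFD against KO_CTR in fibroblast-like cells and 0.31 for KO_CTR against Lox_CTR and 0.057 for KO_HFD against KO_CTR in smooth muscle-like cells. With the stricter gate they were 0.31 for Lox_HFD against Lox_CTR in thymocyte-like cells and −0.14 for KO_HFD against Lox_HFD and 0.071 for KO_HFD against KO_CTR in fibroblast-like cells, and without the cells marked by Scrublet 1.53 for KO_CTR against Lox_CTR and 1.25 for Lox_HFD against Lox_CTR in T cell-like cells.

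With no upper limit on genes per cell, thymocyte-like, macrophage-like and fibroblast-like cells held 35.6%, 7.05% and 25.3% of the UMIs of the 34 genes, against 19.2%, 7.57% and 23.5% with the stricter gate. The thymocyte-like share was 38.1% in cells with at least 1000 UMIs and 37.0% without the marked doublets. The replication to mitosis ratio was 2.15 in fibroblast-like cells with no upper limit on genes. In thymocyte-like cells it was 0.867 with at least 1000 UMIs, 0.585 with the stricter gate and 0.759 as a mean over cells, and in macrophage-like cells 1.28 as a mean over cells. The top cells held 45.1% of Mcm6 and 15.8% of Apex1 with no upper limit, and the top 1% of cells held 44.5% of Mki67, 17.2% of Mcm6 and 4.06% of Apex1.

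The share of cells with 8 or more of the genes was 1.72% for fibroblast-like cells with no upper limit on genes and 34.8% for thymocyte-like cells with the stricter gate. Thinned to 3000 UMIs it was 2.41% for macrophage-like and 0.0691% for fibroblast-like cells. With a limit of 5 genes and no thinning the shares were 11.4% for macrophage-like and 13.1% for fibroblast-like cells. At that limit the order of these classes was the reverse of that at 8 genes. With a limit of 15, chosen after the data were seen, the shares were 37.7%, 2.67% and 0.199% for thymocyte-like, macrophage-like and fibroblast-like cells. Over the 18 comparisons described, 86 values of the 34 genes were past 2-fold, 49 with a minimum of 50 UMIs and 182 past 1.5-fold. Each comparison held 15 to 34 of the genes with at least 20 UMIs. Of all genes with at least 20 UMIs, 3.48% to 16.0% were past 2-fold in a comparison. For the other limits no share over all genes was made, so that these counts are not a result about the 34 genes.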

Other observations

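Some smaller classes also held cells with many of the 34 genes. Neutrophil-like cells (148 cells) had 794, 2913, 3107 and 38.3 CPM of the 34 genes, and 3, 2, 4 and 0 of them had 8 or more of the genes. These 9 cells gave 91.5% of the UMIs of the 34 genes in the class. Of 210 B cell-like cells 4 had 8 or more, and of 48 NK cell-like cells 3.

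Endothelial-like cells had 299, 297, 372 and 451 CPM, and 0 of 177 had 8 or more of the genes, which allows a share of up to 1.69% by the limit of 3 counts, with an exact interval up to 2.06%. Of 467 cells in no class, 29 had 8 or more.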
